A study of Mus musculus with 2 samples.

Results

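A set of 8 long noncoding RNA genes were described: Malat1, Neat1 and Miat, whose RNAs stay in the nucleus, the snoRNA host genes Gas5, Snhg1, Snhg11 and Snhg12, and Rmst, a noncoding gene of neural tissue. They were chosen by name after the width, score and covered share of their peaks had been seen, and are 8 of 12727 long noncoding RNA genes and of 49943 genes of all kinds in the RefSeq gene table (assembly GRCm38.p6, which shares its chromosome coordinates with mm10). The data were the deposited peaks of 1 chromatin immunoprecipitation library for trimethylated lysine 4 of histone H3 (H3K4me3), made from fixed chromatin of sorted NOS1+ neurons of the mouse small intestine. A library of input chromatin came from the same kind of cells. The name of the deposited peak list sets the immunoprecipitate against this input, of which no file was used here. NOS1 is the neuronal nitric oxide synthase. The sources used here do not give the strain, age or sex of the animals, nor how NOS1+ cells were marked for the sort. Each peak was assigned to a gene when at least 1 bp of it lay over the gene model or within 1 kb of it. The score is the deposited value of each peak on a scale that is not stated, so it only ranks peaks within this list. Sequencing depth is unknown, there was no replicate, and no test was possible.

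H3K4me3 is placed around the start sites of transcribed and poised genes, and it usually fades within the first part of the transcribed region. Malat1 RNA collects in nuclear speckles, bodies rich in splicing factors, and Neat1 RNA is the scaffold of paraspeckles. Genes of the Gas5 and Snhg kind carry small nucleolar RNAs (snoRNAs) in their introns, and these guide the chemical modification of ribosomal and other RNAs after the introns are removed. All of these classes are transcribed in many cell types.

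The list held 29924 peaks with medians of 690 bp for width and 35.7 for score. Over the gene that defined the sort, Nos1, lay 1 peak of 183 bp (score 13.0). The neuronal genes Elavl4 (highest score 96.9), Tubb3 (36.9) and Ret (59.2), the last a receptor of enteric neurons, carried stronger peaks. So did the glial gene Sox10 (85.9) and the smooth muscle genes Acta2 (32.6) and Tagln (17.4), with both smooth muscle scores below the median of the list. Genes of glia and smooth muscle were thus marked beside those of neurons, and which cells carried the peaks described here cannot be told apart in 1 pooled library.

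All 8 genes had a peak over the model, 18 peaks in all. The same was true of 26.6% of long noncoding RNA genes and 67.0% of protein-coding genes, but the 8 were chosen with this known, so nothing is read from their count. Of the 18 peaks, 8 were at least 1000 bp wide and 10 were under 500 bp, while 5 had a score of at least 140 and 11 one below 20. Of the 8 broad peaks, the 5 with a score of at least 140 lay at Malat1, Gas5, Snhg1 and Snhg12, those with scores of 58.8 and 53.5 at Neat1, and the last, with a score of 19.2, at Miat. Snhg11 and Rmst had only narrow peaks with scores below 20. The covered share of the model reached from 0.300% at Rmst to 98.7% at Malat1, with a median of 31.2%, against 6.05% for long noncoding RNA genes with a peak. The latter median fell with model length. It was 18.2% from 2000 to 5000 bp (the class of Gas5, Snhg1 and Snhg12) and 6.05% from 5000 to 20000 bp (Malat1, Miat and Snhg11). From 20000 to 100000 bp (Neat1 and Rmst) it was 1.77%. At least 50% of the model was covered at 3 of the 8, Malat1, Gas5 and Snhg12, against 9.62% of long noncoding RNA genes and 4.38% of protein-coding genes with a peak. The covered share was also known when the 8 were chosen, so nothing is read from this count.

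**Figure D1:**
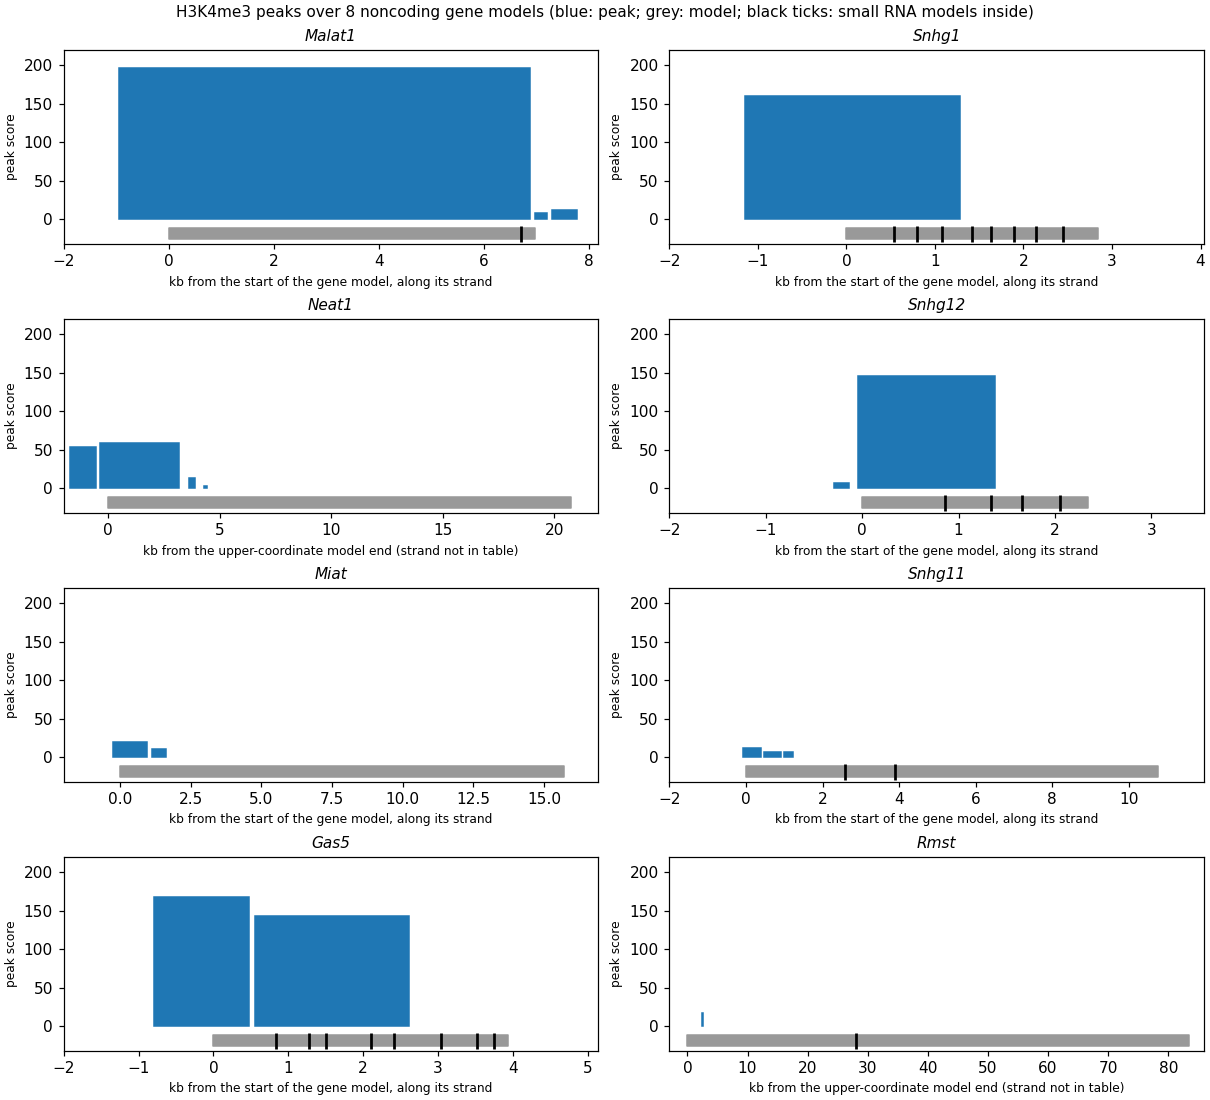
H3K4me3 peaks over the 8 gene models. The horizontal axis is the distance in kb from the start of the model along its strand (for Neat1 and Rmst, whose strand is not in the table of start sites, from the upper-coordinate end), and bar height is the deposited peak score. Grey bars are the models and black ticks the small RNA models inside them. The peak of Malat1 fills its model, those of Gas5, Snhg1 and Snhg12 stop part of the way along, and the peaks of Miat, Snhg11 and Rmst are low.

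Malat1 carried the widest peak of the 8, and it ran through the whole gene. Malat1 (chromosome 19, 5795690 to 5802672, minus strand) is a gene of 6983 bp whose nuclear RNA is trimmed at its 3′ end to release a small tRNA-like RNA, mascRNA. Its main peak, from 5795783 to 5803621, was 7839 bp wide, the fifth widest of the 29924, and its score of 196.3 stood at percentile 90.6 of all peaks. It began 949 bp upstream of the start site and ended 6889 bp downstream of it, 93 bp short of the 3′ end of the model. The mascRNA model, 6691 to 6748 bp from the start, lay wholly inside it. A further peak of 222 bp (score 7.32) touched the 3′ end by 3 bp and another of 485 bp (score 12.04) lay 315 bp beyond it. Together they covered 6893 bp of the model. Just outside the 1 kb limit lay a peak of 376 bp (score 36.7), 1119 bp upstream of the start, and one of 153 bp (score 3.17), 1248 bp beyond the 3′ end.

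Among long noncoding RNA genes, the covered length of Malat1 ranked 19 and its covered share ranked 74. The 5 with the greatest covered length, C130071C03Rik (15206 bp), Sox2ot (11495 bp), Hoxb5os (11122 bp), Mir100hg (10203 bp) and Hoxaas3 (10137 bp), reached it with 10 to 12 separate peaks each. By the widest peak at the gene Malat1 ranked 4, after 4932441J04Rik, Gm16141 and Hand2os1, 3 genes named here only because of these values. Of the long noncoding RNA models covered to at least 95%, 91 in number with a median length of 953 bp, Malat1 was the longest, and the next, Hotairm1, measured 3497 bp.

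**Figure D2:**
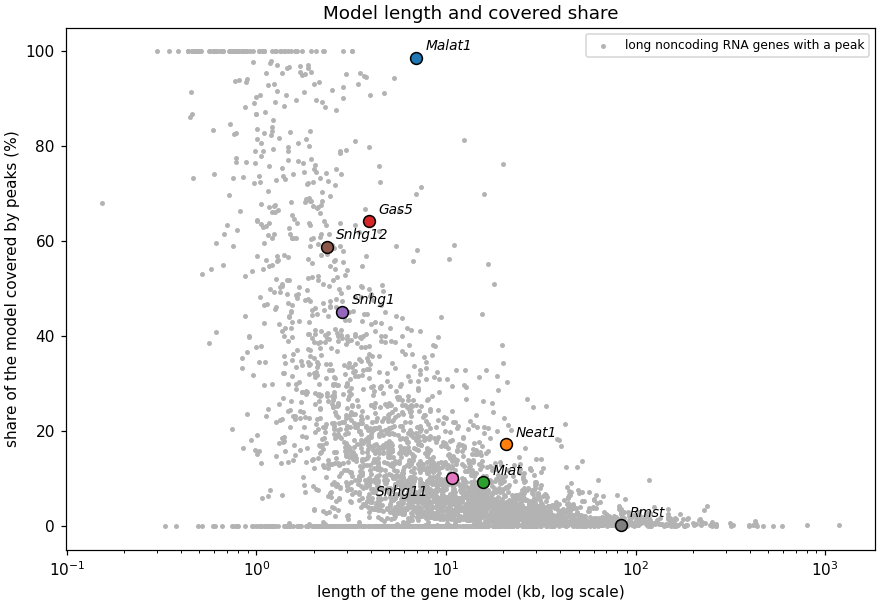
Length of the gene model in kb (log scale) against the share of the model covered by peaks in percent. Grey points are long noncoding RNA genes with a peak and coloured points are the 8 genes. Malat1, at 6983 bp and 98.7%, is the longest model covered to at least 95%.

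The start site allowed the reach of a peak to be read in each direction for 6 of the 8 genes, through 7 start sites in the RefSeq table, 2 of them of Gas5. All 7 lay inside a peak, as did 14.5% of listed start sites of long noncoding RNA genes and 54.3% of those of protein-coding genes. The genes were chosen with their peaks known, so nothing is read from this count. The downstream reach of 6889 bp at Malat1 ranked 2 among 13235 start sites inside a peak. Only that of Gm16141 was longer, at 8248 bp, and its peak is the one that covers the start of Meis1, a homeobox gene on the other strand. The median downstream reach was 1019 bp at protein-coding and 633.5 bp at long noncoding start sites. Snhg12 (1381 bp), Snhg1 (1280 bp) and the second start of Gas5 (2046 bp) lay above both medians, Miat (951 bp) lay between them, and Snhg11 (401 bp) and the first start of Gas5 (469 bp) lay below both. Reach stops at the edge of a single peak, and a gap of only 82 bp parts the 2 peaks of Gas5. The second of them ended 2611 bp beyond the first start.

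**Figure D3:**
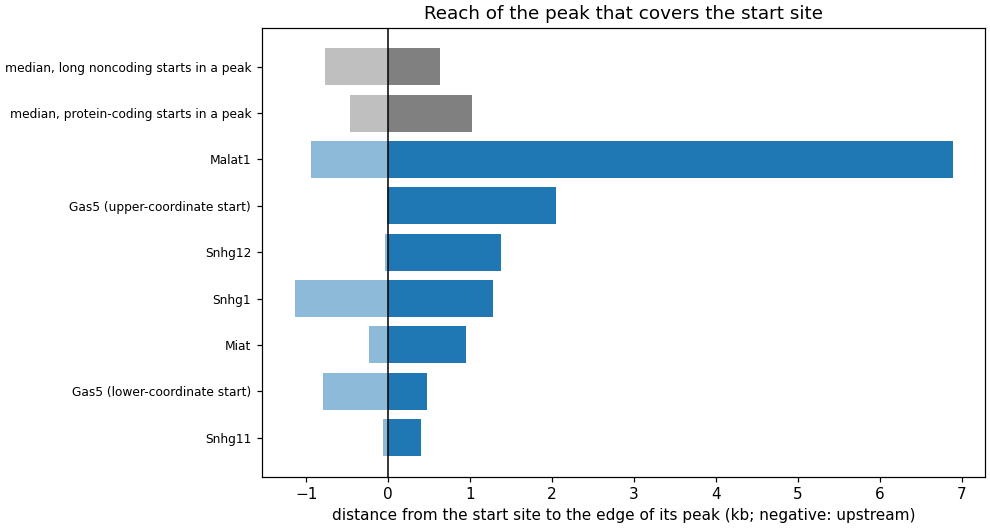
Distance in kb from each start site to the upstream (negative) and downstream edge of the peak that covers it. Blue bars are the 7 start sites of 6 genes and grey bars are medians over start sites inside a peak. The downstream reach of 6889 bp at Malat1 is the longest shown, and the peaks of Snhg12 and of the second Gas5 start have almost no upstream part. Another peak, not drawn in these 2 bars, lies upstream of each across a gap of 97 bp at Snhg12 and 82 bp at Gas5.

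The promoter of Malat1 held 10 CpG dinucleotides, against a median of 22 over all start sites inside a peak. It is shown beside that of Snhg11, which held more of them under low-scored peaks. Both are the 300 bases from 250 before to 50 after the start on the gene's strand, from RefSeq on GRCm38.p6, with CpG in capitals. Malat1 is at chr19:5802623-5802922 (minus strand) and Snhg11 at chr2:158375463-158375762 (plus strand).
Malat1: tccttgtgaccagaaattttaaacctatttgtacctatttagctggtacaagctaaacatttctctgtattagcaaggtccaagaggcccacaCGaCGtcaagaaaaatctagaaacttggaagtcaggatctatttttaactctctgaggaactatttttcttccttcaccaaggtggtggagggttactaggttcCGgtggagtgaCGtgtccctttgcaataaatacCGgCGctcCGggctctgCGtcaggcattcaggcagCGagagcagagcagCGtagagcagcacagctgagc
Snhg11: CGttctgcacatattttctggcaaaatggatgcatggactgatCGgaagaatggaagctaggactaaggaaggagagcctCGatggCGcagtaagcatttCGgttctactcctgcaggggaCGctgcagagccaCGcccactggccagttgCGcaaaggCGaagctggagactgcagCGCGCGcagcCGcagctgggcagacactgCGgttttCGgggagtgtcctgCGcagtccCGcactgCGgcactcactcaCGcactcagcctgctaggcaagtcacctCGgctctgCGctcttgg
The Malat1 sequence had 10 CpG and a G+C content of 47.0%, that of Snhg11 21 CpG and 60%. Start sites with 10 to 14 CpG lay inside a peak in 60.7% of cases, where the median peak was 1314 bp wide and the median score 124.2, while Malat1 had 7839 bp and 196.3. Start sites with 20 to 29 CpG lay inside a peak in 86.1% of cases, with a median score of 163.2, and 3.32% of their peaks had a score under 20. Snhg11 (score 11.7) and Miat (25 CpG, score 19.2) were both in that low-scored part, while Snhg1, also with 25 CpG, had a score of 160.5. The starts of Snhg12 (18 CpG, score 146.2) and Gas5 (19 CpG, 143.0, and 33 CpG, 168.1) stood close to the medians of their classes, 149.9 for 15 to 19 CpG and 169.3 for 30 or more.

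**Figure D4:**
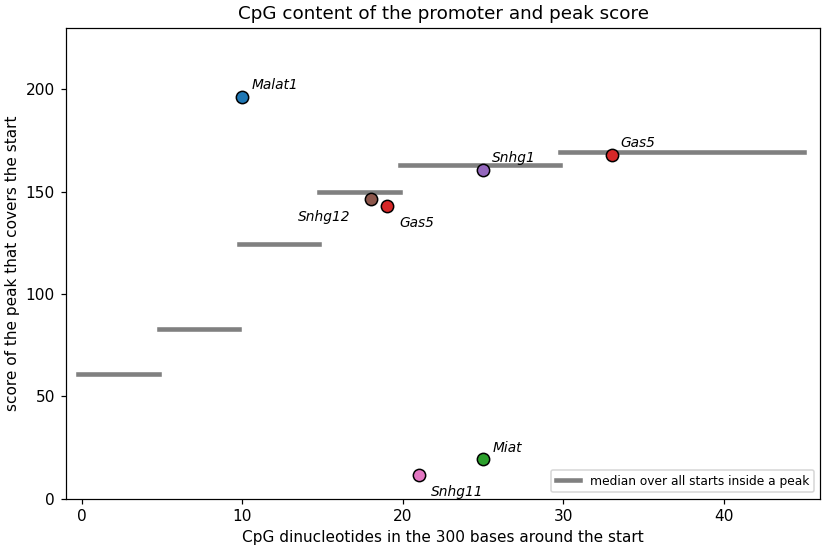
CpG dinucleotides in the 300 bases around the start site against the score of the peak that covers the start. Coloured points are the 7 start sites of 6 genes, and grey lines are medians over all start sites inside a peak in 6 classes of CpG count. Malat1 lies above the line of its class, Snhg11 and Miat far below theirs, and the others near theirs.

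Neat1 lies 22.0 kb from Malat1 on the same chromosome (19, 5824708 to 5845480) and had a broad peak of middling score at its upper-coordinate end. Its RNA occurs in a short and a long form that share a 5′ end, and the long form builds the paraspeckle. The peak of 3535 bp, from 5842328 to 5845862, ranked 400 in width, with a score of 58.8 (percentile 57.4). It reached 3152 bp into the model of 20773 bp and 382 bp beyond it. Next to it outside the model lay a peak of 1170 bp (score 53.5), and further inside lay peaks of 274 bp (score 12.7) and 153 bp (score 2.78). The last ended the marked stretch 4441 bp from the upper end, so the other 16331 bp of the model held none. Beyond the 1 kb limit the row went on with a peak of 490 bp (score 7.64), 1840 bp from the model. With peaks closer than 1 kb merged, a single region of 8995 bp resulted, against 9877 bp at Malat1. The Neat1 region covered 21.4% of its model and ran on beyond the upper end, over peaks not named here. The Malat1 region covered 100% of its model. Between the flanks of both genes lay 2 narrow peaks, of 376 bp and 231 bp.

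Gas5, Snhg1 and Snhg12 had peaks with scores from 143.0 to 168.1 that covered the start and ended inside the short model. Gas5 (chromosome 1, 161034601 to 161038539), first known from cells whose growth had stopped, had a first peak of 1264 bp (score 168.1) and, 82 bp further on, a second of 2060 bp (score 143.0). The first start site lay in the first peak and the second start, at 161035166, lay 13 bp inside the second. Snhg1 (chromosome 19, 8723487 to 8726326), host of the snoRNA U22, had 1 peak of 2423 bp (score 160.5), which reached 1142 bp upstream and 1280 bp downstream. Snhg12 (chromosome 4, 132308678 to 132311024) had a peak of 1422 bp (score 146.2), which began 40 bp upstream of the start, and a narrow one of 153 bp (score 6.16) further upstream, across a gap of 97 bp. Peaks thus covered 64.2% of Gas5, 58.9% of Snhg12 and 45.1% of Snhg1.

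Neighbouring genes share part of this signal. The model of Zbtb37, which encodes a zinc finger protein and lies on the other strand, overlaps the first 264 bp of the Gas5 model and has its listed start at 161034849, inside the first Gas5 peak. The upper-coordinate end of the model of Slc3a2, the heavy chain of an amino acid transporter, lies 118 bp before the start of Snhg1. This end is under the same peak, although the listed start site of Slc3a2 is elsewhere, at 8713897. No end of a protein-coding gene lay within 1 kb of any peak at the other 6 genes.

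The snoRNA models in the 4 hosts divided by their distance from the start. Of 22 models, 9 lay wholly inside a peak, 1 partly and 12 outside, while 4.93% of all annotated snoRNA genes touched a peak. The latter include the 206 models inside Snhg14, all outside peaks. The hosts were also chosen with their peaks known, so nothing is read from this count. In Gas5 the first 5 of 8 were inside, out to 1883 bp from the second start, and the remaining 3, among them Snord47, began at 2435 bp. In Snhg1 the first 3 of 8 were inside, out to 1114 bp, and the other 5, with Snord22 the last, began at 1381 bp. In Snhg12 Snora16a lay inside, Snora44 had 107 of its 117 bp in the peak, and Snora61 and Snord99 lay beyond it. In Snhg11 both snoRNA models, 2509 bp and 3821 bp from the start, lay outside. This division follows from where each peak ended, since at Snhg1, Snhg12 and the second start of Gas5 a single peak ran from the start.

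Host genes of this kind often begin their RNA with a run of pyrimidines, the terminal oligopyrimidine tract that ties translation to growth signals. The 60 bases around the start are shown for the 4 hosts, on the gene's strand with the start as base 31, from RefSeq on GRCm38.p6, for Gas5 at its second start. Capitals mark the longest run of C and T that touches the 5 bases on either side of the start. The windows are chr1:161035136-161035195, chr19:8723457-8723516, chr4:132308648-132308707 and chr2:158375683-158375742.
Gas5: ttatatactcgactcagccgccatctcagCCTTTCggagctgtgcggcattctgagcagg
Snhg1: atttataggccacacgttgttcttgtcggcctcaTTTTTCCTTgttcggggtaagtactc
Snhg12: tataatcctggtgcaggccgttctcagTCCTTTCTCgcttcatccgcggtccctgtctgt
Snhg11: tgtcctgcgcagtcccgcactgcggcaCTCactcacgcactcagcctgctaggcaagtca
The run was 9 bases long in Snhg1 and Snhg12, 6 at the second start of Gas5 and 3 in Snhg11. At the first start of Gas5, not shown, which lay under the higher-scored peak, it was 3. The median over all listed start sites was 3. Relative to the listed start, the run began at base 4 in Snhg1, so after the start. It began at base -3 in Snhg12 and Snhg11 and at base -1 at the second start of Gas5. Whether any of these runs is a terminal oligopyrimidine tract was not tested. A run of at least 7 was found at 14.1% of all start sites, at 2 of the 5 of these hosts and at 4 of 14 start sites of the other snoRNA hosts. Of 6 motifs searched on both strands of the 300 bases, CCAAT (in 37.4% of all promoters), CCGGAAG (8.86%) and the palindromic motif of the factor NRF1 (0.971%) had no match in the 7 promoters. GGGCGG (35.7%) was found at both Gas5 starts, Snhg1 and Miat, TATAAA (13.6%) at Snhg1 on the other strand, from base -29 to base -24 relative to the start, and TGACGTCA (1.79%), the full cyclic AMP response element, at the second Gas5 start, from base -46 to base -39. No match overlapped another motif's match.

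Snhg11, Miat and Rmst carried the weakest signal. Snhg11 (chromosome 2, 158375713 to 158386474), a host gene known from brain, had 3 narrow peaks of 471, 443 and 248 bp with scores of 11.7, 7.02 and 7.06, in a row with gaps of 80 and 64 bp from 69 bp before to 1236 bp after the start. Miat (chromosome 5, 112213228 to 112228948), also named Gomafu, a nuclear RNA of neurons that binds splicing factors, had a peak of 1194 bp (score 19.2) over its start and a second of 498 bp (score 10.4) after a gap of 179 bp. The next peaks in the list were 47.5 kb and 46.6 kb away. Rmst (chromosome 10, 92081746 to 92165178), whose human RNA is known to bind the transcription factor SOX2, had a single peak of 250 bp (score 16.6), 2384 bp inside the upper end of its model of 83433 bp. The nearest other peaks were 891.3 kb and 558.8 kb away. The microRNA gene Mir1251 inside Rmst lay 25.3 kb from the peak and had none of its own.

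**Figure D5:**
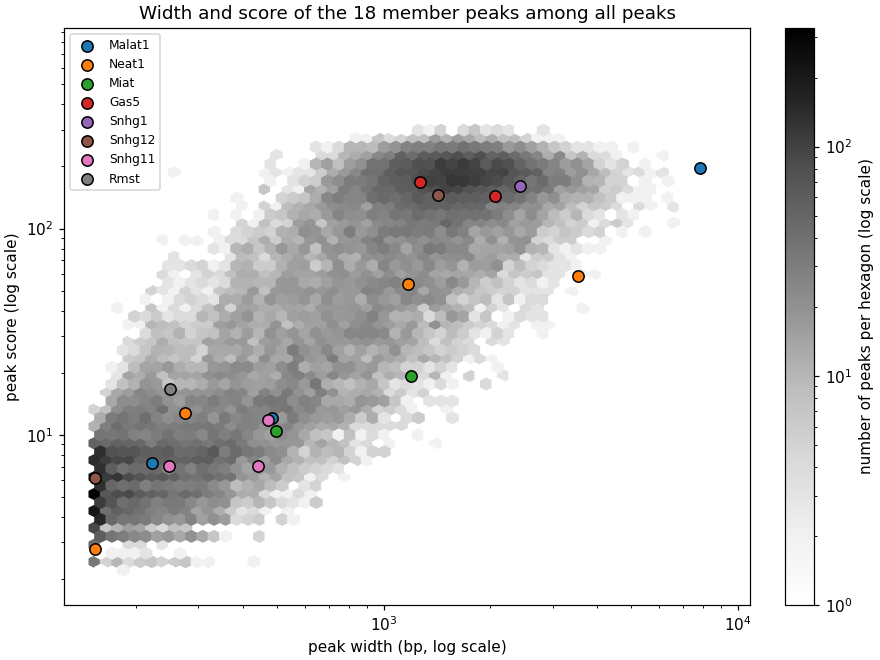
Peak width in bp against peak score, both on log scales. Grey hexagons hold all 29924 peaks, shaded by their number, and coloured points are the 18 peaks at the 8 genes. The main peak of Malat1 lies at the right edge, the peaks of Gas5, Snhg1 and the main peak of Snhg12 lie in the densest high-scored area, and the main peak of Neat1 is wide for its score.

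Most other snoRNA hosts resembled Gas5, Snhg1 and Snhg12 more than Snhg11 in their scores. All 15 (the other Snhg genes and Zfas1) had a peak over the model, against 26.6% of long noncoding RNA genes. The list was drawn up with earlier results of these data known, so nothing is read from this count. Their median widest peak was 1743 bp. Their highest scores ran from 44.2 at Snhg14 to 275.7 at Zfas1, so none was as low as the 11.7 of Snhg11. The 44.2 was the highest of 5 peaks over the long model of Snhg14, whose listed start lay in no peak. The 11.7 belonged to the peak over the start of Snhg11. Snhg14 and Snhg4 (68.5) were nearer in score to Snhg11 than to Gas5, Snhg1 and Snhg12. Snhg18 (3437 bp), Snhg8 (2404 bp), Snhg6 (2038 bp) and Snhg9 (1966 bp) had the widest peaks. Of 14 listed start sites of these other hosts, 13 lay inside a peak, against 14.5% of those of long noncoding RNA genes. These 13 had a median downstream reach of 1225 bp, with a highest value of 1946 bp. Without Snhg14, a model of 1177441 bp that holds 206 snoRNA models, all outside peaks, the others held 20 snoRNA models, of which 8 lay wholly inside a peak, 2 partly and 10 outside.

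Of 17 other long noncoding RNA genes, 14 had a peak, against 26.6% of all long noncoding RNA genes. Hotairm1 (4721 bp), Sox2ot (4588 bp), Peg13 (3848 bp) and Dleu2 (3157 bp) had the widest, and the imprinted genes Rian, Mirg and H19 had none. All 14 had narrower peaks than Malat1, and Dlx6os1, Pantr1 and Xist had only scores below 20, as Miat and Rmst had. Genes of the proteins that work with these RNAs all carried a peak, against 67.0% of all protein-coding genes. The lists were drawn up with earlier results of these data known, so nothing is read from these counts. The 9 paraspeckle protein genes had a median highest score of 212.0, led in width by Hnrnpk (3362 bp), Rbm14, Sfpq and Matr3, and the lowest score among them, 77.5 at Nono, was above the 58.8 of Neat1. The 9 nuclear speckle genes had a median of 230.6, with Srsf2 (3289 bp), Srrm2, Srsf1 and Srsf3 the widest. The 8 genes of snoRNP core proteins had a median of 186.3, with Fbl (2116 bp), which encodes the methyltransferase fibrillarin, Snu13, Gar1 and Dkc1 the widest. For comparison, the median highest score was 152.6 for protein-coding genes with a peak and 83.6 for long noncoding RNA genes with a peak.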

How the data were processed

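H3K4me3 was measured in 1 immunoprecipitate library. Per the file headers, the authors called its peaks with MACS2 from a paired-end library, and the submitters' processing notes name BWA, Picard, MACS2 and mm10 but no versions. The name of the peak list gives the input library as the one it was set against. The deposited score per peak has no stated scale, and the sources used here do not give the threshold or the handling of duplicates. The depth is unknown, so no interval was computed. Low depth splits and loses weak peaks first.

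Peaks were overlapped (at least 1 bp) with RefSeq models plus 1 kb to each side, with Python 3.11.15 and pandas 2.3.3. The overlap code was tested on simulated data. Start sites, strands and 300-base promoters came from the RefSeq promoter table, which held 6 of the 8 genes. The genes and lists were chosen with earlier results of these data known, and the use of pyrimidine runs, CpG classes and start-site reach came after the values were seen. Named genes are the 8, up to 4 widest and any unmarked gene of each list, neighbours with an end near a peak, and up to 5 noncoding genes with greater covered length than Malat1.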

Additional observations from a re-analysis of the deposited data

How the results depend on the processing

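The count of 8 genes with a peak was 8 with no flank, with a flank of 2500 bp, with at least 50% of the peak inside and with peaks closer than 1 kb merged. It was 7 with the ends of the model only and with peaks at least 300 bp wide, where Rmst lost its peak. In the higher-scored 50% of the list 5 genes kept a peak, without Miat, Snhg11 and Rmst, and in the 25% with the highest 4 did, without Neat1 as well, which restates their scores. The 18 peaks became 7 and 5 in these sets and 8 regions when merged. Of the 15 other snoRNA hosts, 8 kept a peak in the highest 25%, against 9.25% of long noncoding RNA genes. Merging changed the widest region by over 1.5 times at Neat1 (8995 bp), Miat (1871 bp), Gas5 (3406 bp) and Snhg11 (1306 bp). The covered share moved by over 1.5 times in 10 of 64 values, each at Rmst, Miat, Snhg11 or Neat1. The main peak of Malat1 had the same width in every setting except merging, where it was part of a region of 9877 bp. No paired analysis was possible because there was 1 immunoprecipitate library. Depth is unknown, so a narrow or missing peak at Miat, Snhg11 or Rmst does not show that the mark was absent.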
